A study of Rattus norvegicus with 3 samples.

Results

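The genes described here are 10 negative feedback regulators of the ERK pathway: the dual-specificity phosphatases Dusp1, Dusp2, Dusp4, Dusp5, Dusp6, Dusp7 and Dusp9, and the Sprouty genes Spry1, Spry2 and Spry4. They were chosen by name in the array's gene name column, ignoring case and the endings "predicted" and "mapped", which gave 11 of 41012 probes, 2 of them for Spry1. After names were updated through RefSeq the array had 35525 distinct gene names, of which the 10 genes are part. The rat line M13 consists of induced pluripotent stem (iPS) cells, that is, cells reprogrammed to a state like that of embryonic stem cells, and its RNA was labelled with Cy3. The 3 arrays, numbered as replicates 1 to 3, each set 1 iPS M13 sample against the same RNA, mix1, in Cy5. The iPS M13 cells were untreated and grew on a feeder layer of irradiated mouse embryonic fibroblasts in medium with fetal bovine serum and a serum replacer. Adult cells were the source of mix1, a mixture of fibroblasts from primary ear cultures with cells cultured from bone marrow, both of rat and grown in serum media. The shares of the cell types in mix1 are not given in the sources used here. No genotype, strain, sex or age is in the labels of either RNA.

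In the ERK pathway, receptors and Ras pass a signal through the kinases Raf and MEK to the ERK kinases, which enter the nucleus and raise the transcription of early response genes. Dual-specificity phosphatases remove phosphate from both threonine and tyrosine of the activation loop of MAP kinases. Dusp1, Dusp2, Dusp4 and Dusp5 encode inducible nuclear enzymes, and Dusp6, Dusp7 and Dusp9 encode cytoplasmic enzymes that prefer ERK. Sprouty proteins act further upstream and damp the signal between growth factor receptors and Ras or Raf. Many of these genes are themselves transcribed in response to ERK, so their transcripts are often read as a gauge of the pathway. In embryonic stem cells, ERK signalling favours the exit from the pluripotent state.

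The arrays lay on 1 slide with 1 scan date, and held 45018 spots each. Well above background were 53.5% to 60.8% of the probes in iPS M13 and 52.3% to 61.0% in mix1. Any pair of arrays had log2 ratios with a correlation of 0.997 or 0.998, taken over genes rather than over independent samples. Of 11 pluripotency markers 6 were measured, and 5 of these were called higher in iPS M13 than in mix1 (Lin28a, at -0.15, was not), with a summed signal of 24088 to 25307 against 2119 to 2302. All 12 fibroblast markers were called lower (summed signal 32837 to 37932 in iPS M13 against 2542613 to 2888018 in mix1), with Thy1 and Postn not well above background in iPS M13 on any array. All 9 measured macrophage and marrow markers (3985 to 4254 against 313377 to 327970, Ctss and Ptprc not well above background in iPS M13) and all 5 measured smooth muscle and stromal markers (5333 to 5893 against 568579 to 611591, Cnn1 not well above background) were called lower too. The part of these cell type differences in the values below was not tested, nor was hybridisation of feeder RNA. In such bulk RNA, fewer cells of a type and less RNA per cell cannot be told apart.

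Of the 10 genes, 7 had a probe bright enough to be tested, that is, well above background in 1 RNA on all 3 arrays. In iPS M13, Dusp1, Dusp5, Dusp6 and Spry1 were 8.91-fold to 167-fold lower than in mix1, and Dusp9 was 3.69-fold higher. These folds are after loess normalization within arrays. Without that step the log2 ratios were -6.59 (Dusp1), -2.36 (Dusp5), -3.34 (Dusp6), -2.64 (Spry1) and 2.33 (Dusp9). Dusp2 and Spry2 differed by less than 2-fold, and Dusp4, Dusp7 and Spry4 were too dim to test. A gene was called at a Benjamini-Hochberg adjusted p under 0.05 in limma together with at least a 2-fold difference. By that rule 5 of the 7 were called, 1 higher and 4 lower, where 44.2% of the 20338 genes tested were called, 18.8% higher and 25.4% lower. An adjusted p under 0.05 was found for 19542 of the 20338, so the p-value alone sets few genes apart. The 7 are not a sample of the 10, since a gene bright in 1 RNA alone could pass the filter: Dusp9 and Dusp2 passed on the iPS M13 signal alone, being well above background in mix1 on 2 of 3 arrays.

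**Figure D1:**
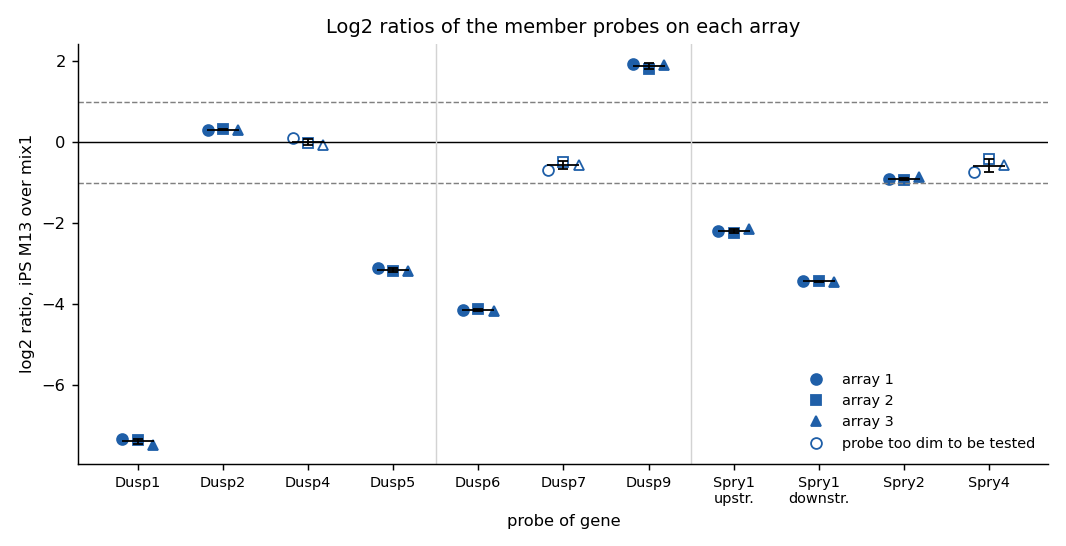
Log2 ratio of iPS M13 over mix1 for each of the 11 probes on each of the 3 arrays; the black dash and bar give the mean ± SD (n = 3), dashed lines mark a 2-fold difference, grey lines separate nuclear phosphatases, cytoplasmic phosphatases and Sprouty genes, and open symbols are probes too dim to be tested. Dusp1 lies lowest at -7.38, Dusp9 is the only gene above the upper dashed line at 1.88, and the symbols of a probe nearly coincide.

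The array reads genes through DNA probes of 60 bases, and 6 of the 11 member probes are shown as examples. Positions are those of the file headers' build, rn3. The probes of Dusp1, Dusp4 and Dusp7 align over 320, 7791 and 2557 bases of genome, longer than the probe itself, so they join sequence that is apart in the genome. Both Spry1 probes lie on chromosome 2, 1269 bases apart from start to start. The upstream one is shown, while the downstream one, being brighter, stands for the gene.
Dusp1, chr10:16945391-16945710: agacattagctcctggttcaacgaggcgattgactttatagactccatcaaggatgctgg
Dusp2, chr3:114745348-114745407: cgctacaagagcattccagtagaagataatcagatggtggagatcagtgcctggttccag
Dusp4, chr16:61111848-61119638: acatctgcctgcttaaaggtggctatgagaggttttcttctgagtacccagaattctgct
Dusp7, chr8:111532161-111534717: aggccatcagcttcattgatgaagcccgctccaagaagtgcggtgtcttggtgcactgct
Spry1, upstream probe, chr2:124166769-124166828: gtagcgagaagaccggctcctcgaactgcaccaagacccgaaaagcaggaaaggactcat
Spry2, chr15:90025603-90025662: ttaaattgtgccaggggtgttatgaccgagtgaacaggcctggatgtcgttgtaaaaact

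Among the nuclear phosphatases, Dusp1 had the largest difference of the 7 tested members. Dusp1, also called MKP-1, is an early response gene whose product inactivates p38 and JNK as well as ERK. Its spot signals before background correction were 319, 320 and 297 in iPS M13 on replicates 1, 2 and 3, against 28217, 31424 and 27095 in mix1. The iPS M13 signal was small, though every array still had it well above background, and the RNAs did not overlap. The log2 ratio was -7.33, -7.36 and -7.46, or -7.38 ± 0.07 (SD, n = 3; limma adjusted p = 6.23e-07), lower on 3 of 3 arrays. Of the 20338 genes tested, 0.462% had a lower ratio.

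Dusp5, which encodes a nuclear phosphatase specific for ERK, was lower by a smaller factor. Signals were 1621, 1892 and 1858 in iPS M13 and 7873, 10432 and 9110 in mix1. Both RNAs were thus bright on every array, with mix1 above iPS M13 each time. The log2 ratio was -3.11, -3.17 and -3.19, a mean of -3.16 ± 0.04 (SD, n = 3; limma adjusted p = 1.09e-06). The ratio of Dusp5 exceeded that of Dusp1 by 4.23 ± 0.04 within arrays.

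Dusp2, a phosphatase best known from activated immune cells, did not share that difference. Its signals were 253, 297 and 271 in iPS M13 and 153, 170 and 159 in mix1, which was not well above background on replicate 3. These are dim readings in both RNAs. The log2 ratio was 0.31, 0.32 and 0.31, with a mean of 0.31 ± 0.01 (SD, n = 3; limma adjusted p = 7.00e-05), short of 2-fold. On the same arrays it lay 7.70 ± 0.07 above the ratio of Dusp1. Dusp4, known as MKP-2, had signals of 104, 107 and 105 in iPS M13 and 85.7, 90.3 and 93.4 in mix1. Both RNAs failed the background criterion on every array, so no ratio is given for Dusp4.

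The cytoplasmic ERK phosphatases went in opposite directions. Dusp6, or MKP-3, a widely used transcript readout of ERK activity, had signals of 1624, 2061 and 1904 in iPS M13 and 16165, 21877 and 18466 in mix1. No array had Dusp6 near background in iPS M13, yet all 3 had it far under mix1. Its log2 ratio was -4.14, -4.11 and -4.16, a mean of -4.14 ± 0.03 (SD, n = 3; limma adjusted p = 6.23e-07), or 17.6-fold lower. Only 3.85% of the genes tested had a lower ratio.

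Dusp9, or MKP-4, an X-linked member of the same subgroup, had signals of 962, 1144 and 1050 in iPS M13 and 175, 200 and 188 in mix1. None of the other tested members was called higher in iPS M13. The log2 ratio was 1.94, 1.80 and 1.91, a mean of 1.88 ± 0.07 (SD, n = 3; limma adjusted p = 7.00e-06), with mix1 well above background on 2 of 3 arrays. A higher ratio was found for 5.45% of the genes tested. Within arrays the log2 ratio of Dusp9 exceeded that of Dusp6 by 5.91 to 6.08, a mean of 6.02 ± 0.10 (SD, n = 3). With 3 arrays the smallest two-sided p of an exact sign-flip test is 0.25, too large to decide on this difference. Dusp7, or MKP-X, the third of the subgroup, had signals of 126, 135 and 136 in iPS M13 and 157, 164 and 154 in mix1. It was well above background only in mix1, on 2 of 3 arrays, so neither a ratio nor a bound is given for Dusp7.

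The Sprouty genes were lower or not called. Spry1, an inhibitor of growth factor signalling to Ras, had signals of 1432, 1622 and 1714 in iPS M13 and 8665, 10756 and 10043 in mix1 at its brighter, downstream probe. The arrays left a wide gap between the RNAs. The log2 ratio was -3.42, -3.43 and -3.44, a mean of -3.43 ± 0.01 (SD, n = 3; limma adjusted p = 6.20e-07), or 10.8-fold lower. The upstream probe was dimmer, with 171, 187 and 199 in iPS M13, where it was well above background on 2 of 3 arrays, and 547, 701 and 576 in mix1. That probe also called Spry1 lower, at -2.19 ± 0.05 (SD, n = 3; adjusted p = 2.61e-06 in the limma fit over 24152 probes, of which 25.1% were called lower). The probes disagreed in size by 1.24 ± 0.06, between 1.19 and 1.31 on every array.

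Spry2, the Sprouty gene with the broadest described role in receptor feedback, had signals of 476, 525 and 521 in iPS M13 and 578, 693 and 588 in mix1. Both RNAs were well above background on all 3 arrays and close to each other. Its log2 ratio was -0.91, -0.92 and -0.87, a mean of -0.90 ± 0.03 (SD, n = 3; limma adjusted p = 8.52e-06), or 1.87-fold lower, and so short of 2-fold. Unlike the signals, that ratio is after loess normalization. Without within-array normalization the Spry2 ratio was -0.39, and under median centring -0.33. The ratio of Spry2 lay 2.53 ± 0.04 above that of Spry1 within arrays. Spry4, an inhibitor of the same family, had signals of 136, 141 and 125 in iPS M13, not well above background on any array, and 171, 162 and 146 in mix1. In mix1 it passed the background criterion on 2 of 3 arrays, so Spry4 likewise has neither a ratio nor a bound.

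**Figure D2:**
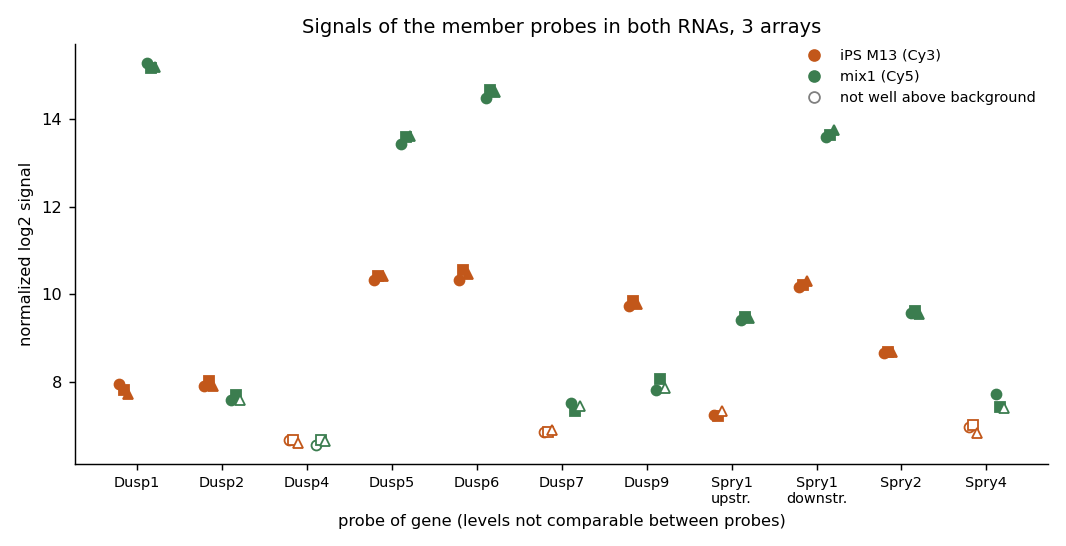
Normalized log2 signal of each of the 11 probes in iPS M13 (Cy3) and mix1 (Cy5) on 3 arrays, with open symbols for signals not well above background; levels can be compared between the RNAs of a probe, not between probes. Dusp1, Dusp5, Dusp6 and Spry1 show a wide gap with mix1 on top, Dusp9 shows iPS M13 on top, and all symbols of Dusp4 are open.

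Ordered by log2 ratio, the tested genes ran from Dusp1 (-7.38) through Dusp6 (-4.14), Spry1 (-3.43), Dusp5 (-3.16), Spry2 (-0.90) and Dusp2 (0.31) to Dusp9 (1.88). No neighbours in this order overlapped on any pair of arrays. The closest neighbours, Spry1 and Dusp5, differed by 0.28 ± 0.03 (SD, n = 3). That order of Spry1 and Dusp5 holds for the downstream Spry1 probe: the upstream probe lay 0.97 ± 0.07 above Dusp5. Averaged over both probes, Spry1 was at -2.81 and lay above Dusp5. Each array is a sample by its label, but no source states separate cultures. The p-values therefore rest on a spread that may be technical.

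The start regions of the 5 called genes are shown so that those called lower can be set beside Dusp9. Sequences are from RefSeq, build GRCr8, and are the 250 bases before the annotated start. Windows were found for every member except Dusp4, and 2 for Spry2, which made 10. Capitals mark matches to TGACG on either strand, which includes the full cAMP response element TGACGTCA, or to the CArG box that serum response factor binds.
Dusp1 promoter, chr10:17184603-17184852, plus strand: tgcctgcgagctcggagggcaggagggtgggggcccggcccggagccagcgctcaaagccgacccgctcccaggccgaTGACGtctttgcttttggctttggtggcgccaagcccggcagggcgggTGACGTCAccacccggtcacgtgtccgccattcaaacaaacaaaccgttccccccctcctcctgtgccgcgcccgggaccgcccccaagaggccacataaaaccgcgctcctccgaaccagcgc
Dusp5 promoter, chr1:262543524-262543773, plus strand: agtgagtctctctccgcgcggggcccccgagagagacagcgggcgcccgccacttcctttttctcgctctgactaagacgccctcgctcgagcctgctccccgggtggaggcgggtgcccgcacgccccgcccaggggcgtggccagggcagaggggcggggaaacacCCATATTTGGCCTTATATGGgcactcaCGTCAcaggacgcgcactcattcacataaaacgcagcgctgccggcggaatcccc
Dusp6 promoter, chr7:35979354-35979603, plus strand: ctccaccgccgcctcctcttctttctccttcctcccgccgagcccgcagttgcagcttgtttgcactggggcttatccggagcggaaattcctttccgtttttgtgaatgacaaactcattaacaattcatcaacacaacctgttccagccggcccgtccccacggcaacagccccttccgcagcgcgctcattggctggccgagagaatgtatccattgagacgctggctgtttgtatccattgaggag
Spry1 promoter, chr2:122485097-122485346, plus strand: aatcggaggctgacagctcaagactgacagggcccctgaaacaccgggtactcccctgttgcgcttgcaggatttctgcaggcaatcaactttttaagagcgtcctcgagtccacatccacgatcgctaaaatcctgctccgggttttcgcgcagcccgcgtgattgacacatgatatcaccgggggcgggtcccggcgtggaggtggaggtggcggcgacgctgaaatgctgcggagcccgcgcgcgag
Dusp9 promoter, chrX:156502987-156503236, plus strand: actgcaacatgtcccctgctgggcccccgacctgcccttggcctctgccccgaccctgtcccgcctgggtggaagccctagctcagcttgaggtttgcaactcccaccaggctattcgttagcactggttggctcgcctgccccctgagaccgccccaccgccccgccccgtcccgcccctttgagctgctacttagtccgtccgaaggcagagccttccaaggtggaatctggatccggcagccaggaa

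Among the 10 windows, only that of Dusp1 held TGACGTCA, which 1.59% of 33469 windows of this length hold. The shorter TGACG occurred in 4 of the 10, those of Dusp1, Dusp2, Dusp5 and 1 of the Spry2 windows, against 18.2% of all windows. The CArG box occurred in the Dusp5 window alone, 2 times in a row, and is found in 1.5% of all windows. Neither the AP-1 motif TGANTCA (6.34% of all windows) nor the ETS motif CCGGAAG (7.27%) matched in any of the 10 windows. The windows of Dusp6, Spry1 and Dusp9 held none of these motifs. A match describes the letters of the window and says nothing of binding.

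Transcription factors that respond to ERK signalling and its target genes were, as a mixed list, mostly lower in iPS M13. Of 25 measured genes of 30 on the list of ERK-responsive factors and targets, 21 were called lower and 0 higher, against 25.4% and 18.8% of all genes. Where both RNAs had to be well above background, which tests fewer genes, 18 were called lower. The list's median log2 ratio was -3.28, against -0.02 over all genes tested. Fos, the AP-1 subunit, was at -7.19 ± 0.04 (SD, n = 3), Ier3, an early response survival gene, at -6.14 ± 0.03, and Myc, the growth regulator, at -5.71 ± 0.03. The early response factor Egr1 was at -5.60 ± 0.02. The ETS factors Etv4 (-3.28 ± 0.05) and Etv5 (-3.21 ± 0.02), which respond to FGF and ERK, were lower too, with smaller differences at their other probes (-1.76 and -2.15).

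Of the kinases and adaptors of the cascade, 24 of 27 genes were measured. Of these, 4 were called higher and 7 lower, near the 18.8% and 25.4% of all genes tested, with a median of -0.42; under median centring the counts were 7 and 4. Mapk3, which encodes the kinase ERK1, was called lower at -2.45 ± 0.01 (SD, n = 3). The kinase Braf (1.48 ± 0.05), the ERK-activated kinase Rps6ka1 (1.37 ± 0.03) and the Ras exchange factor Sos2 (1.22 ± 0.03) were called higher. Other Sos2 probes, at 0.92 and 0.52, were not called, and the Sos2 call ended with the mean over its probes (0.89) and with the GC trend of the probes removed (0.997). Lowest were the Ras relatives Mras (-3.63 ± 0.0018) and Rras (-2.94 ± 0.0028), and the adaptor Shc1 (-2.74 ± 0.03, and -1.65 at another probe).

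Receptors and ligands that feed the cascade were mostly lower, with 11 of 14 measured genes of 21 called lower (25.4% of all genes), 2 higher (18.8% of all genes) and a median of -3.46. Where both RNAs had to be well above background, which tests fewer genes, 8 were called lower. The PDGF receptor Pdgfrb, a marker of mesenchymal cells, was at -7.22 ± 0.03 (SD, n = 3). The EGF receptor Egfr was at -5.71 ± 0.02, with iPS M13 well above background on 1 of 3 arrays, and at -3.71 from another probe. The FGF receptor Fgfr1 was at -5.47 ± 0.14, with iPS M13 well above background on 2 of 3 arrays. Kit and Met, receptors for stem cell factor and hepatocyte growth factor, were called higher. The Kit probe failed the background criterion in mix1 on every array, and without the filter on dim probes the log2 ratio taken for Kit was 0.18 and not called. Met, which failed the same criterion in mix1, was 2.0-fold higher with mix1 at its bound. The Met call ended without replicate 3 (log2 ratio 0.95) and with the GC trend of the probes removed (0.94).

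Other negative regulators of Ras and ERK had 11 of 20 measured genes of 28 called lower (25.4% of all genes) and 1 higher (18.8% of all genes), with a median of -1.19, or -1.11 with unmeasured sides at their bounds. Several of the 11 passed the filter on the mix1 signal alone. Where both RNAs had to be well above background, which tests fewer genes, 5 were called lower. The phosphatase of blood cells Ptpn7, which acts on ERK, was at -4.28 ± 0.04 (SD, n = 3), with iPS M13 well above background on 1 of 3 arrays. The receptor-type phosphatase Ptpre was 15.5-fold lower at its brightest probe with iPS M13 at its bound, and at -3.31, -3.54 and -1.25 at its other probes. The Ras GTPase-activating gene Rasa3 was at -2.94 ± 0.03 (-1.16 at another probe). Spred1, a relative of the Sprouty genes, was at -1.27 ± 0.02 and its other tested probes at -1.41 and -0.95. The Spred1 call ended under median centring (-0.58) and without within-array normalization (-0.64). Spred2 was too dim to test in both RNAs on every array. Lrig3 was 1.93-fold higher with mix1 at its bound, and its log2 ratio was 0.0063 after removal of the trend with the GC content of the probes.

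The other dual-specificity phosphatases had 6 of 11 measured genes of 22 called lower (25.4% of all genes) and 1 higher (18.8% of all genes), with a median of -1.21. Under median centring, without within-array normalization and with the GC trend of the probes removed, 4 were called lower. The cofilin phosphatase Ssh3 was at -3.65 ± 0.03 (SD, n = 3), the catalytically inactive relative Styxl1 at -2.58 ± 0.07 and Dusp18 at -2.28 ± 0.04. Dusp8, whose product acts on JNK and p38, was at -1.997 ± 0.03, and no longer reached 2-fold with the GC trend taken off (-0.81). Dusp22, linked to JNK signalling, was the only gene of that list called higher, at 2.71 ± 0.04, although 2 were under median centring. Dusp10 was too dim in both RNAs on every array, and Dusp16 passed the background criterion in iPS M13 on 2 arrays and in mix1 on 1.

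The parallel p38 and JNK kinases, on which Dusp1 also acts, had 3 of 13 measured genes of 18 called higher, 2 lower and a median of 0.17, with 18.8% and 25.4% of all genes called so. Called higher were the p38 activator Map2k6 (2.06 ± 0.09, SD, n = 3), the upstream kinase Map3k4 (1.90 ± 0.02) and Mapk8 (1.07 ± 0.03), which encodes JNK1. Other Mapk8 probes, at 0.23 and 0.64, were not called, and the Mapk8 call ended with the mean over probes (0.65) and with the GC trend removed (0.775). The p38 substrates Mapkapk2 (-2.05 ± 0.03) and Mapkapk3 (-1.71 ± 0.05, iPS M13 well above background on 1 of 3 arrays) were called lower.

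**Figure D3:**
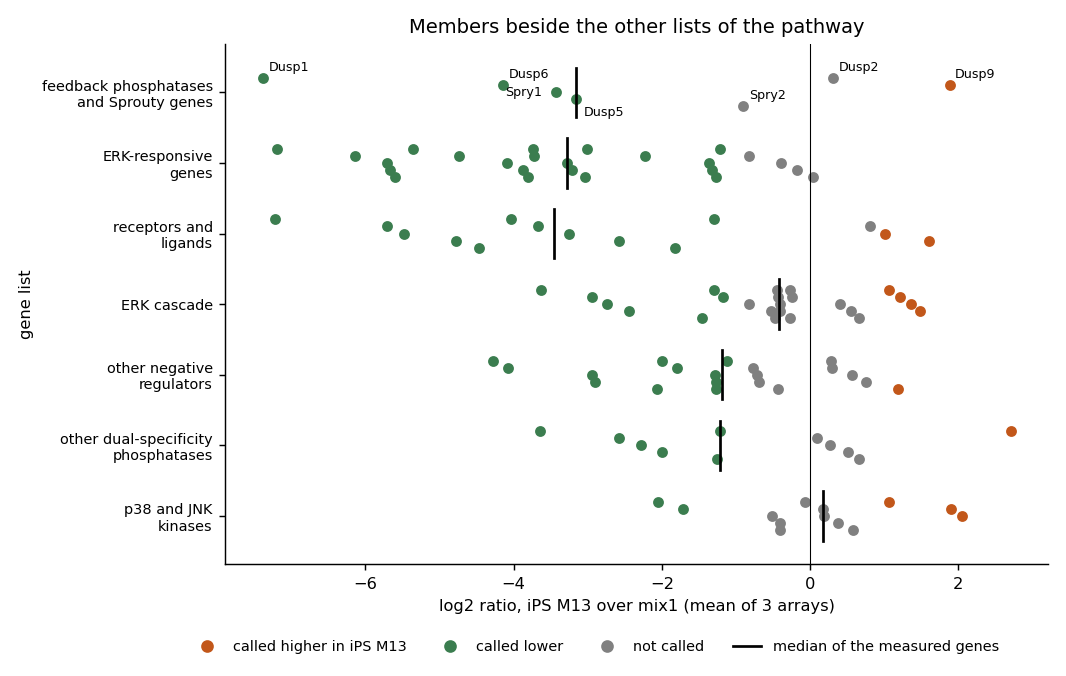
Log2 ratio of iPS M13 over mix1 (mean of 3 arrays) for every measured gene of the 10 members and of 6 other lists of the pathway, coloured by call, with a black bar at each list's median. The ERK-responsive genes (median -3.28) and the receptors and ligands (median -3.46) lie left of 0 for the most part, the ERK cascade (median -0.42) spreads to both sides, and Dusp9 lies apart from the other members on the right.

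All 7 tested members kept their sign and their side of the calling rule in every processing alternative that could be computed for them. For members other than Spry1, the filters, the mean over probes and the changed moderation cannot move the ratio, so those alternatives repeat the main value. Both ends of the range for Dusp1 were large, -7.65 with a normexp offset of 0 and -6.54 under median centring. Dusp6 ran from -4.18 to -3.29, Dusp5 from -3.19 to -2.30 and Spry1 from -3.48 to -2.58. Dusp9 was at 1.85 to 2.77, the latter with the scanner's processed signals. Spry2 came closest to the 2-fold line, at -0.99 with a normexp offset of 0, and was at -0.33 under median centring, which moved the median of all genes up by 0.60. Dusp2 reached 0.81 with the processed signals. Without a dye swap, dye and cell type cannot be told apart in any of these values.

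**Figure D4:**
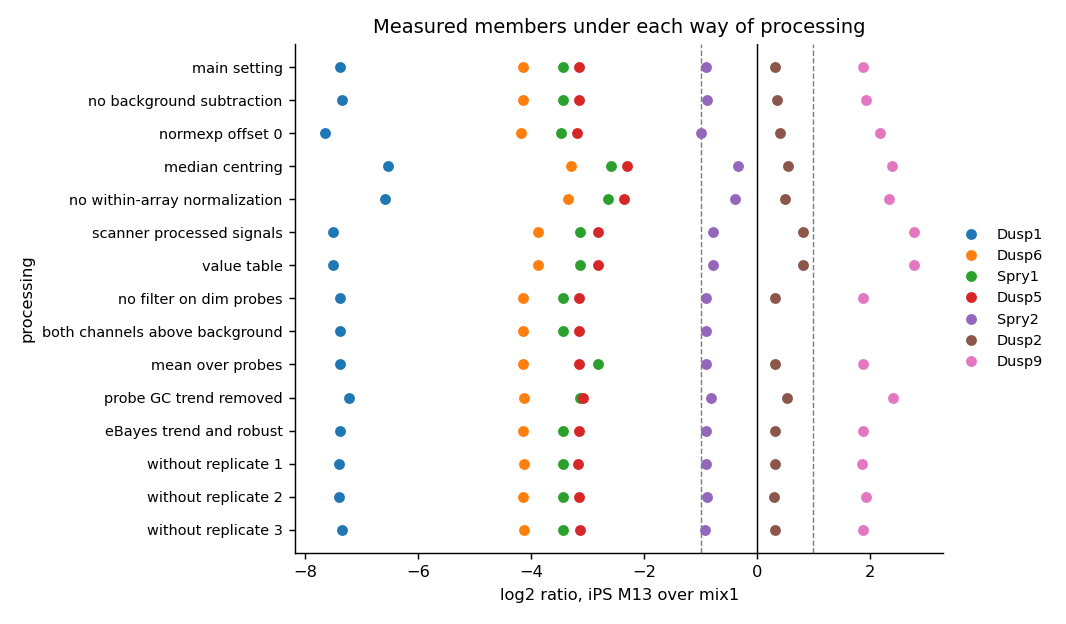
Log2 ratio of iPS M13 over mix1 of the 7 tested members (colours) under the main setting and each of 14 processing alternatives (rows), with dashed lines at a 2-fold difference. Dusp1, Dusp6, Spry1 and Dusp5 stay left of -1, Spry2 and Dusp2 stay between the dashed lines, and Dusp9 stays right of 1 wherever it was tested.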

How the data were processed

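RNA of 3 iPS M13 samples (Cy3) was hybridised against 1 RNA, mix1 (Cy5), on 3 two-colour rat arrays. Spot intensities and local backgrounds were deposited by the authors as Agilent Feature Extraction wrote them (version 9.5.3.1 and probe build rn3 per the file headers; the program is also named in the submitters' processing notes). Flags for spots well above background come from the same deposited files. The deposited log10 ratios were Cy5 over Cy3 of processed intensities, per the file headers. The authors' deposited value table held log2 ratios of unstated direction and centring. Regressed on the log10 ratios, each column gave a slope of -3.32, with correlations from -0.99995 to -0.99986, so it was read as log2 of Cy3 over Cy5, with column medians of -0.0413, -0.0282 and -0.0286.

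Mean signals were corrected by normexp (offset 50) and normalized by loess within arrays with limma 3.58.1 (R 4.3.3), giving control spots no weight. Outlier spots (205, 263 and 192) were left out, and none was a member's. Probes well above background in 1 RNA on all 3 arrays were kept (24152 of 41012), the brightest standing for its gene. Names were updated through RefSeq's gene table: 20107 probes matched and 20905 kept the name in the file. The mean log2 ratio was tested against 0 with lmFit and eBayes, mix1 entering as 1 control RNA, which leaves out its own spread, and adjusted by Benjamini-Hochberg over all genes. Levels are after Aquantile scaling. For a bound, the dim RNA was set on each array to no less than the lowest signal well above background before the means were divided, and dye bias was not tested. That lowest log2 signal was 4.717 for mix1 on replicate 2, under dim readings there such as Dusp4 (6.69). A bound is therefore not a strict limit on the difference. The fit was tested on simulated data. The number of arrays limits the precision.

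The members and lists were chosen with earlier results of these data known. Lists overlap: Spred1 is among both the ERK-responsive genes and the other negative regulators. Pdgfra and Csf1r are receptors of the pathway lists and also cell type markers. The naming rule took all 10 members, 10 further genes (Mapk3, Egr1, Fos, Etv4, Etv5, Spred1, Spred2, Dusp8, Dusp10 and Dusp16), and up to 3 highest and 3 lowest called genes of each list; 1 more gene of the rule is not reported here. Alternatives covered background, normalization, signals, filter, probe choice, GC content, moderation and each replicate.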

Additional observations from a re-analysis of the deposited data

How the results depend on the processing

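Each of the 7 tested members kept its direction and its side of the calling rule under all alternatives computed for it, 14 for most and 13 for Dusp2 and Dusp9, which had no value under the filter on both channels. That filter left 0 members called higher. Not all of these alternatives could move a ratio. For members other than Spry1, the filters, the mean over probes and the changed moderation leave the ratio as it was. The value table gave the same member ratios as the processed signals. Over all genes 7409 were called higher under median centring, 7009 without within-array normalization and 6316 with the scanner's processed signals or the value table, against 3818. The calls then were 67.2%, 65.2% and 56.6% higher, against 42.5%. Cascade genes called higher and lower numbered 7 and 4 under median centring and without normalization, and 2 were higher with the GC trend removed. Other negative regulators called higher numbered 4 under median centring and without normalization, 2 with the processed signals or the value table, and 0 with both channels above background or the GC trend removed, and 5 were lower with both channels. Other dual-specificity phosphatases called higher numbered 2 under median centring, without normalization, with the processed signals and in the value table. Kinases of the p38 and JNK list called higher numbered 6 under median centring and 5 without normalization, and 1 was lower with both channels. Receptors and ligands called higher numbered 1 without the dim-probe filter or with the GC trend removed, 0 with both channels, and 1 to 2 when a replicate was left out. The cause of these moves was not tested, except that a filter on both channels tests fewer genes. Each ratio is already within an array, so the test against 0 pairs each iPS M13 sample with mix1. No further pairing applied, because there is 1 group. Dim signals limit Dusp4, Dusp7 and Spry4, for which no ratio is given.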
